A study of Mus musculus with 2 samples.

Results

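The messenger RNAs of 8 glycolytic enzymes (Aldoa, Aldoc, Tpi1, Gapdh, Pgk1, Pgam1, Eno1 and Ldha) were followed in the RNA recovered with an antibody against HuR and in a control recovery with IgG. They were taken by name, through the Entrez Gene numbers of the deposited table, and are carried by 14 of the 16896 spotted cDNA clones of the array, out of 7791 named genes. All 14 clones lay in the brighter 50% of features by mean signal. HuR, also called Elavl1, is an RNA-binding protein, and the comparison asks which transcripts are enriched in its complex over the IgG background.

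Both extracts came from C2C12, a mouse myoblast line, kept proliferating with 20% fetal bovine serum to 80% confluency and given no treatment. There was 1 sample per antibody, HuR or IgG, and 3 array runs of each, here called the unnumbered run, run 3 and run 4 as their columns are named. No statement of whether a run was a repeat hybridisation or a separate immunoprecipitation was found in the labels, so the runs were not taken as replicates and no test between the antibodies was made. Bulk extracts were used, so recovery from fewer cells and lower recovery per cell cannot be told apart. Of the myoblast marker list, 3 of 9 genes (Vim, Id1 and Id3) had a named clone, and each lay in the brighter 50%, while Des, Myf5 and the other 4 had none. They scored 0.01 to 0.44 with HuR and 0.31 to 0.54 with IgG. Of 8 liver and epithelial markers, 6 lay in the brighter 50% as well, at 0.46 to 1.70 with HuR and 0.46 to 1.99 with IgG, and the part of other cell types in the results was not tested.

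Glycolysis splits glucose into a pair of pyruvate molecules. Aldolase cuts the 6-carbon sugar, triosephosphate isomerase interconverts the resulting 3-carbon units, and glyceraldehyde-3-phosphate dehydrogenase, phosphoglycerate kinase, phosphoglycerate mutase and enolase carry them on to phosphoenolpyruvate. Lactate dehydrogenase then turns pyruvate into lactate. HuR binds U-rich and AU-rich stretches, mostly in the 3' ends of transcripts, and glycolytic enzyme transcripts are abundant in growing cells and serve widely as reference transcripts.

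The deposited values are z scores, which place a spot among all spots of its run. Each run was set to a median of 0 in each of the 2 sections of the array, and a difference is HuR minus IgG in z score units, first in each run pair and then as the mean ± SD over the 3 pairs. This SD is the spread between run pairs. For a gene with several clones, the value is the median of the clone means, and the SD is that of the clone medians of the 3 pairs. A score depends on the clone spotted, so scores of different clones were not ranked against each other.

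The 8 genes had a median difference of -0.34, with 6 below 0 and 2 above. All 4238 named genes of the brighter 50% had a median of -0.04. Eno1 was lowest at -0.86 ± 1.29, followed by Pgk1 at -0.70 ± 1.21 and Ldha at -0.56 ± 0.98. In these 3 genes the SD exceeded the size of the difference, so their values did not stand out from the spread between run pairs. Aldoa (-0.35 ± 0.24) differed by more than its SD and Gapdh (-0.34 ± 0.34) by about its SD, and Pgam1 (-0.07 ± 0.16), Tpi1 (0.05 ± 0.57) and Aldoc (0.19 ± 0.48) lay within it. The run pairs did not go the same way. By pair, the gene median was -0.53 (unnumbered), 0.10 (pair 3) and -0.28 (pair 4), with 7, 4 and 6 of the 8 genes below 0. Counted by clone, 13, 6 and 12 of the 14 were below 0, against 56.6%, 46.5% and 52% of the brighter features of the same pairs. On the first section, 11, 5 and 10 of its 12 clones were below 0, against 53.1%, 39.3% and 57.1% of its brighter features. Gapdh has 5 of the 14 clones and Eno1 3, so these are not counts of independent measurements.

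**Figure D1:**
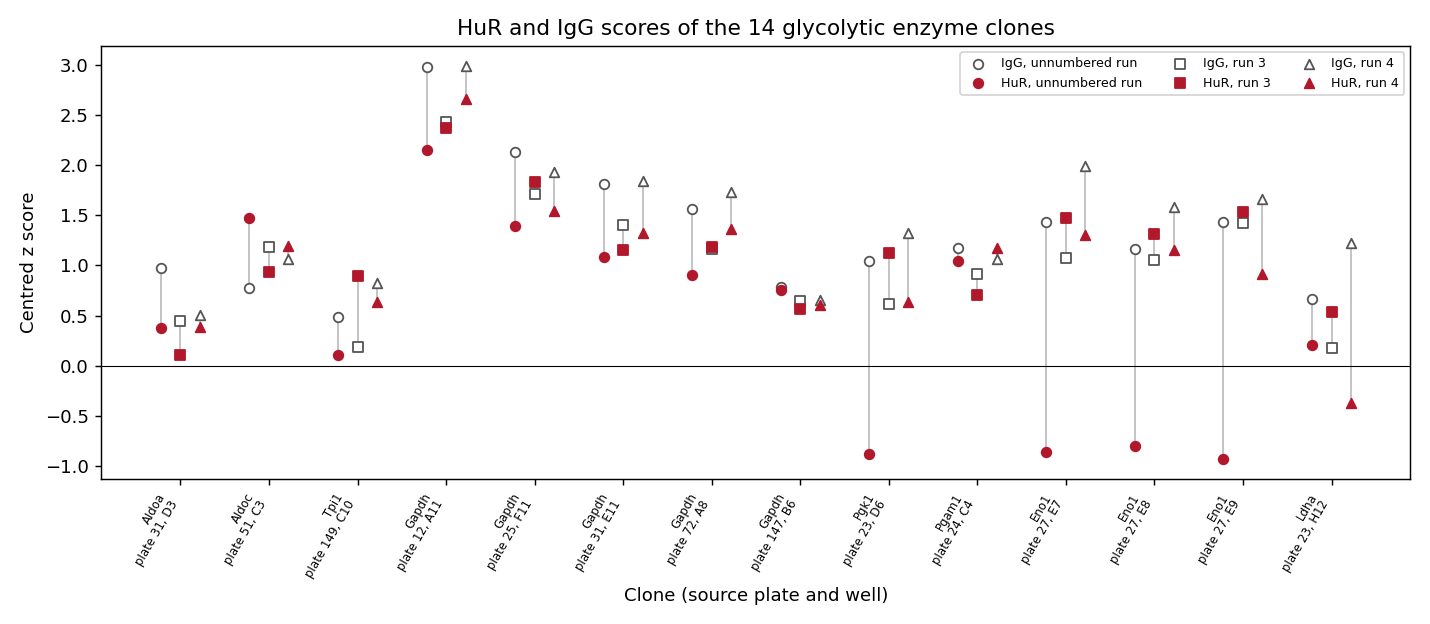
Centred z score (vertical axis) of each of the 14 clones (horizontal axis, with source plate and well) in the HuR runs (red) and the IgG runs (open), a marker shape per run and a grey line joining the runs of a pair. The HuR score of Pgk1 and of the 3 Eno1 clones lies between -0.93 and -0.80 in the unnumbered run and at 0.64 or above in the other HuR runs.

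The pathway order begins with the aldolases. Aldoa, the muscle-type aldolase (Entrez Gene 11674, chromosome 7 in the deposited annotation), scored 0.38, 0.11 and 0.39 with HuR in the unnumbered run, run 3 and run 4, and 0.97, 0.45 and 0.51 with IgG. Each of its HuR runs lay below each of its IgG runs, and its differences were -0.59, -0.34 and -0.12. Without the unnumbered pair its mean was -0.23. Aldoc, the brain-type aldolase (Entrez Gene 11676, chromosome 11), scored 1.47, 0.93 and 1.19 with HuR and 0.77, 1.18 and 1.06 with IgG. Its runs overlapped, and its differences of 0.70, -0.25 and 0.13 differed in sign between pairs, with a mean of -0.06 without the unnumbered pair. Both aldolase clones sat in neighbouring grids of the array, in grid row 10, columns 6 and 5, where the surrounding spots had a median of -0.45 and -0.49 in pair 3. Relative to these surroundings the mean difference was -0.19 ± 0.33 for Aldoa and 0.40 ± 0.30 for Aldoc. The aldolase genes share coding sequence, and many of these enzymes have processed pseudogenes. Whether a spot tells such relatives apart was not tested.

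Tpi1, triosephosphate isomerase (Entrez Gene 21991), was one of the 2 clones on the second section. It scored 0.11, 0.89 and 0.64 with HuR and 0.49, 0.19 and 0.82 with IgG. Only run pair 3 was above 0, at 0.70, against -0.38 and -0.18 in the others. The spots around it had a median of 0.57 in pair 3, and with the local median subtracted Tpi1 was at -0.36, 0.13 and -0.24.

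Gapdh (Entrez Gene 14433, chromosome 6), which oxidises glyceraldehyde-3-phosphate and is a common loading reference, had 5 clones from 5 source plates. Most of its runs scored lower with HuR than with IgG. On plate 12 it scored 2.15, 2.37 and 2.66 with HuR and 2.98, 2.43 and 2.99 with IgG. On plate 31 the scores were 1.08, 1.15 and 1.32 with HuR and 1.81, 1.40 and 1.84 with IgG, and no HuR run reached an IgG run. The plate 25 clone was at 1.39, 1.83 and 1.54 with HuR and at 2.13, 1.71 and 1.93 with IgG. The plate 72 clone was at 0.90, 1.18 and 1.36 with HuR and 1.56, 1.16 and 1.73 with IgG. These 4 clones of the first section gave much the same picture in each pair. Their differences were -0.83 to -0.66 in the unnumbered pair, -0.25 to 0.12 in pair 3 and -0.52 to -0.33 in pair 4, with means of -0.50 to -0.34. The gene's mean without the unnumbered pair was -0.18. The clone of plate 147, on the second section, scored 0.75, 0.57 and 0.61 with HuR and 0.78, 0.65 and 0.66 with IgG, a difference of -0.05 ± 0.03. Among the brighter features of their section, 4.39% to 14.6% lay below the means of the first-section Gapdh clones, and 44.3% lay below that of the second-section clone. Differences were wider on the first section, where their SD over the brighter features was 0.41 against 0.22 on the second. A further clone of the second section, described as Gapdh in its annotation but without a gene number or symbol, was not counted and was at 0.05 ± 0.56.

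The surroundings of the first-section Gapdh clones were nearer 0 than the clones in the unnumbered pair. The local median, over a window of 7 by 7 spots without clones of the same gene, ran from -0.23 to 0.06 in the unnumbered pair, from -0.31 to 0.13 in pair 3 and from 0.02 to 0.31 in pair 4. In pair 3 the surroundings were at -0.12 for plate 12 and -0.31 for plate 31, and both clones lay 0.06 above them. With it subtracted, the 4 clones had means of -0.48 to -0.29, against -0.50 to -0.34 without. The clones of plates 12 and 31 lay in grid column 21, rows 13 and 11, that of plate 25 in column 22, row 3, and that of plate 72 in column 15, row 13.

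Pgk1, phosphoglycerate kinase, the first step of glycolysis that returns ATP (Entrez Gene 18655, chromosome X), scored -0.88, 1.12 and 0.64 with HuR and 1.04, 0.62 and 1.32 with IgG. The unnumbered HuR run alone was below 0. Its differences were -1.92, 0.50 and -0.68, and without the unnumbered pair the mean was -0.09. Pgam1, phosphoglycerate mutase (Entrez Gene 18648, chromosome 19), scored 1.04, 0.71 and 1.17 with HuR and 1.17, 0.91 and 1.06 with IgG. Its runs overlapped, and its differences of -0.13, -0.20 and 0.11 were small in every pair.

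Eno1, alpha-enolase (Entrez Gene 13806, chromosome 4), had 3 clones, from the adjoining wells E7, E8 and E9 of plate 27. The clones were thus not taken as independent probes of the gene, and their sequences were not compared. The E7 clone scored -0.86, 1.47 and 1.30 with HuR and 1.43, 1.07 and 1.99 with IgG. The E8 clone scored -0.80, 1.31 and 1.15 with HuR and 1.16, 1.05 and 1.58 with IgG. The E9 clone scored -0.93, 1.53 and 0.91 with HuR and 1.43, 1.42 and 1.66 with IgG. In all 3 clones the unnumbered HuR run stood apart from the other 5 runs, which were all at 0.91 or above. Pair by pair the gene's difference was -2.29, 0.26 and -0.69. Among the brighter features of the first section, at most 0.972% lay below any Eno1 clone in the unnumbered pair, while 55.8% to 85.8% lay below them in pair 3. Without the unnumbered pair the 3 clones were at -0.15, -0.09 and -0.32.

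Ldha, lactate dehydrogenase A (Entrez Gene 16828, chromosome 7), scored 0.21, 0.54 and -0.37 with HuR and 0.67, 0.18 and 1.22 with IgG. Its low value came from a different pair than those of Eno1 and Pgk1. The differences were -0.46, 0.36 and -1.59, and without run pair 4 the mean was -0.05. The spots around it had a median of 0.03 in pair 4. On its source plate, in corner well H12, the 3 adjoining wells had a median of -0.71 in that pair.

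**Figure D2:**
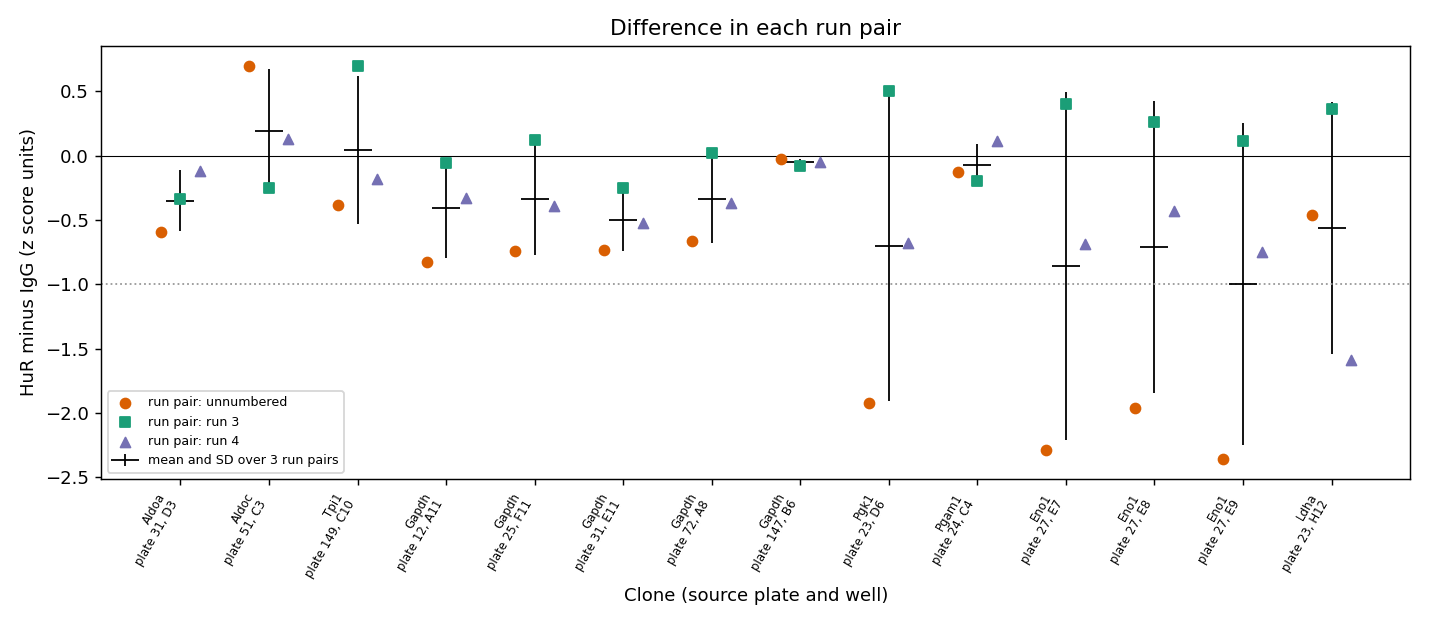
HuR minus IgG in z score units (vertical axis) for each clone (horizontal axis) in each of the 3 run pairs (coloured markers), with the mean and SD over pairs in black and a dotted line at -1. The unnumbered pair is at -1.92 or below for Pgk1 and Eno1, and run pair 3 is at or above -0.34 for every clone.

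Of the 14 clones, 1 was at or below -1, the E9 clone of Eno1, which lay exactly on that threshold with an SD of 1.25 over run pairs. Of the 8452 brighter features, 0.0947% were at or below -1, as were 0.19% of those on the first section. None of the clones was at or above 1, against 1.56% of the brighter features. At the looser threshold of -0.6, 4 clones were counted, those of Pgk1 and Eno1, against 1.12% of the brighter features and 2.23% of those on the first section. None was at or above 0.6, against 3.68%. The 4 clones stand for 2 genes, and 3 of them for adjoining wells, so the share of clones is not a share of independent measurements. Lower in every run pair were 4 clones (Aldoa and the Gapdh clones of plates 12, 31 and 147), against 10.4% of brighter features. With the local median subtracted, none of these 4 was lower in every pair, since pair 3 was then at 0.11 for Aldoa, 0.06 for both plate 12 and plate 31, and 0.01 for plate 147. Eno1, Pgk1 and Ldha were not among the 4. None was higher in every pair, against 10.2%. Every HuR run lay below every IgG run for 2 clones, Aldoa and the plate 31 clone of Gapdh, against 2.54% of brighter features. None lay above, against 4.58%. The unnumbered pair alone put 4 clones, again Pgk1 and Eno1, at or below -1.5, against 0.887% of brighter features and 1.78% on the first section. In pair 3 there was none, against 0.0473%, and in pair 4 there was 1, Ldha, against 0.296%. Below 0 in the mean were 12 clones, the 5 of Gapdh and the 3 of Eno1 among them, against 55.4% of brighter features.

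In the authors' deposited table the z ratio of the 14 clones ran from -3.33 for the E9 clone of Eno1 to 0.64 for Aldoc. The authors' deposited table gave Eno1 two-tailed p-values of 0.28, 0.31 and 0.18 for wells E7, E8 and E9, Pgk1 0.27 and Ldha 0.15. It gave 0.04 for Aldoa, 0.03 for the plate 25 clone of Gapdh and 0.00, as rounded there, for its plate 31 clone. These 3 lower clones with a deposited p under 0.05 compare with 3.57% of the brighter features. No source used here gives the calculation behind it. The 4 clones of Pgk1 and Eno1, which had the lowest z ratios in the authors' deposited table, thus had p-values of 0.18 or more.

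Array position was examined for every clone, as planned, and the clones of Eno1 and Pgk1 lie close together. The grids were laid out in 16 rows and 24 columns, following the microtitre plate positions in the deposited table, and each grid holds spots in 5 rows and 5 columns. Each section was divided into 192 cells of 1 grid row by 2 grid columns. In the unnumbered pair, 12 cells of the first section had a median at or below -0.5, and all 12 lay within grid rows 8 to 12 and grid columns 11 to 16. The lowest cell was at -2.01, in grid row 10 and columns 13 to 14, where the HuR run had a median of -1.68 and the IgG run 0.16. The low values there thus sat in the HuR run. The 252 brighter features of these cells had median differences of -0.87 (unnumbered), 0.14 (pair 3) and -0.01 (pair 4). On the second section 0 cells reached -0.5 in that pair. The other pairs had low cells too. In pair 3, 3 cells of the first section, down to -0.585, and 2 of the second, down to -0.58, were at or below -0.5. In pair 4, 4 cells of the first section were, down to -0.935, and 0 of the second.

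Pgk1 (grid row 10, column 12) and the E7 and E8 clones of Eno1 (grid row 11, columns 13 and 15) lay inside these 12 cells, and the E9 clone of Eno1 (grid row 11, column 17) lay just outside. The spots around E7 had a median difference of -1.64 in the unnumbered pair, and those around E8 -1.63. Those around Pgk1 were at -0.89 and those around E9 at -0.38. With the local median subtracted, the unnumbered pair was at -0.65 for E7, -0.34 for E8, -1.03 for Pgk1 and -1.99 for E9. The mean over pairs was then -0.34 ± 0.52, -0.22 ± 0.28, -0.46 ± 0.70 and -0.93 ± 0.98. E9 thus differed from its surroundings almost as much as from the section, while E7 and E8 lay much nearer to theirs, with Pgk1 between. The HuR score in the unnumbered run was nearly the same in all 3 Eno1 clones while the surrounding HuR scores were -1.35, -1.22 and -0.08. The part of position in the low value of E9 was not tested.

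**Figure D3:**
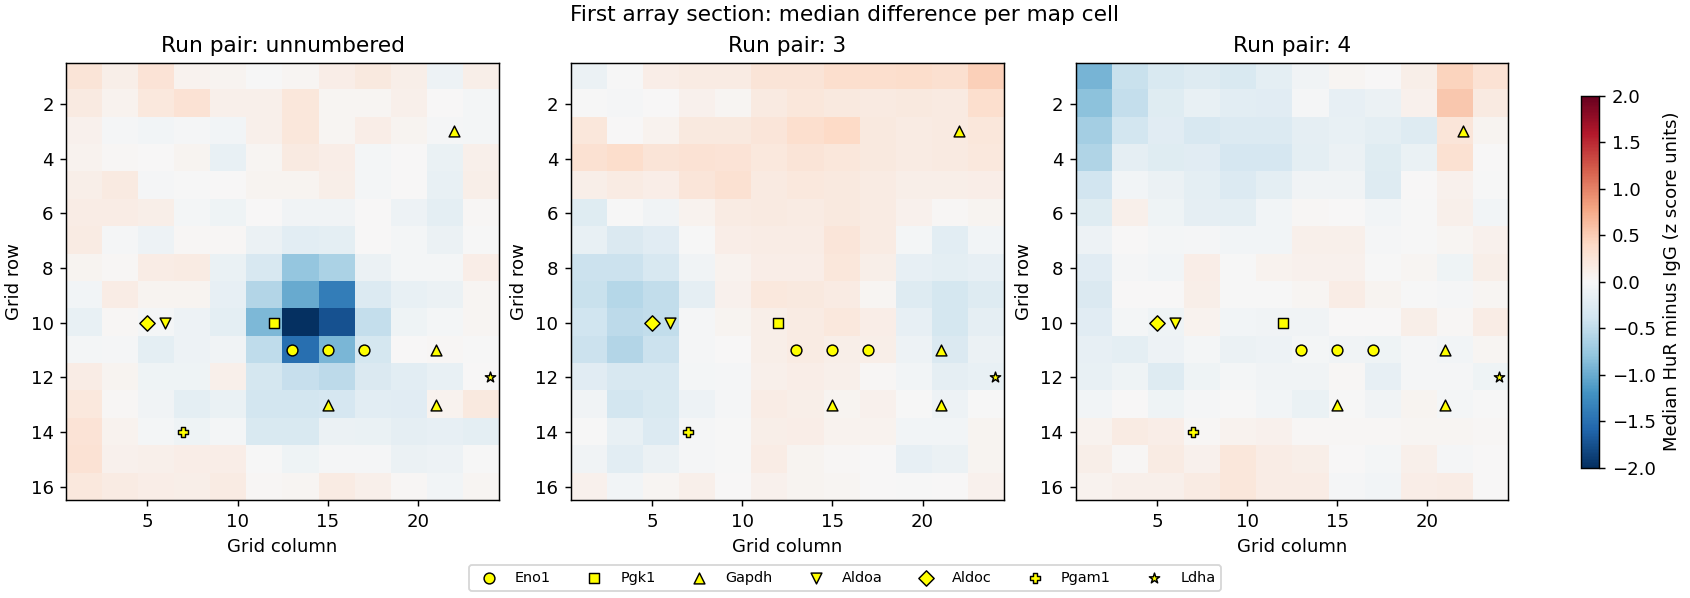
Median HuR minus IgG (colour, z score units) in 192 cells of the first array section, by grid column (horizontal axis) and grid row (vertical axis), in each run pair, with the 12 enzyme clones of that section in yellow. The low cells of the unnumbered pair, down to -2.01, hold Pgk1 and 2 Eno1 clones, and the brighter features there have medians of 0.14 and -0.01 in pairs 3 and 4.

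Of the features named here around the Eno1 clones, which were past 1 unit in the mean, those near E8 were lowest in the unnumbered pair. Rragc, a Rag GTPase gene, was at -3.64, 0.05 and -0.45 in that pair and pairs 3 and 4, and Aen, an exonuclease gene, was at -2.91, 0.37 and -0.70. Cop1, a ubiquitin ligase gene, was at -2.71, 0.07 and -0.65. The spot next to E9 was a clone of Actb, cytoplasmic actin, at 1.76, 2.04 and 2.64, so it was higher with HuR in every pair. Near Ldha, Prickle1, a planar cell polarity gene, was at 1.61 ± 0.23.

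The features most like Eno1, by the smallest sum of squared distances over the 3 run-pair differences among the brighter features, were Mcoln2, Phgdh and Cct5, at 0.040, 0.043 and 0.053. All 3 lay in grid rows 9 to 11 and grid columns 14 to 15 of the first section. Mcoln2, a mucolipin channel gene, was at -2.37, 0.14 and -0.55. Cct5, a chaperonin subunit, was at -2.44, 0.42 and -0.62, and Phgdh, the first enzyme of serine synthesis from 3-phosphoglycerate, at -2.19, 0.32 and -0.52. This likeness was chosen on these values and includes array position.

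**Figure D4:**
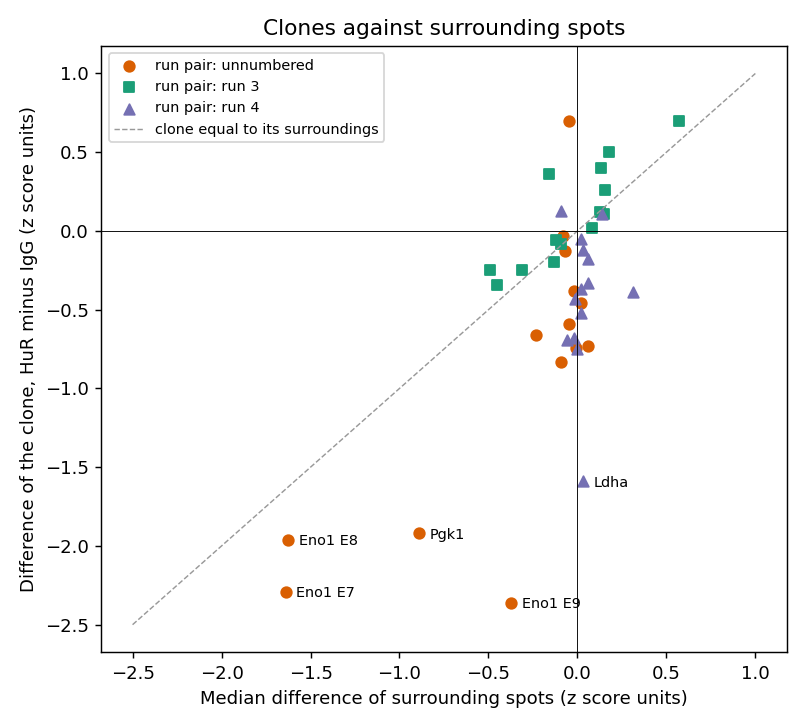
Difference of each of the 14 clones (vertical axis) against the median difference of the surrounding spots (horizontal axis), both in z score units, with a marker per run pair and a dashed line where they are equal. Eno1 E7, Eno1 E8 and Pgk1 have surroundings at -1.64, -1.63 and -0.89 in the unnumbered pair, and Ldha is at -1.59 in pair 4 with surroundings at 0.03.

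With the local median subtracted in every run pair, 13 of the 14 clones were below 0, against 50.1% of the brighter features, and Aldoc was the exception. The 13 include 5 clones of Gapdh and 3 of Eno1, so they are not a count of independent measurements. Pgam1, at -0.05, and the second-section Gapdh clone among them lay close to their surroundings. Tpi1 went from 0.05 to -0.16 with this subtraction. At or below -0.6 was then 1 clone, Eno1 E9, against 0.71%. Leaving out the unnumbered pair gave 1 clone at or below -0.6, that of Ldha at -0.62, against 0.615%. The median of the 8 genes was -0.34 over all pairs, -0.27 with the local median subtracted, -0.12 without the unnumbered pair and -0.21 without Eno1 and Pgk1.

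Other genes of sugar metabolism were taken from a list of 47, of which 28 were on the array and 16 had clones in the brighter 50%. They had a median of -0.15, with 15 below 0 and 1 above, while 2443 of all 4238 named genes were below 0. None of the 16 was at or below -0.6. With dim clones included, the median of the pathway genes was -0.08. Pkm, pyruvate kinase, which makes pyruvate and ATP, was at -0.48 ± 0.50 and -0.42 ± 0.40 on clones from adjoining wells of plate 30. Its differences of -0.74, 0.07 and -0.68 by gene had a low unnumbered pair and pair 4 and a pair 3 near 0, as the first-section Gapdh clones did. Gpi1, which converts glucose-6-phosphate to fructose-6-phosphate, was at -0.35 ± 0.46 on the first section and -0.04 ± 0.32 on the second. The Gpi1 and Gapdh clones of the second section were thus both nearer 0 than those of the first, with no test of this difference. Pfkfb3, whose product makes the activator of phosphofructokinase, was the 1 gene above 0, at 0.36 ± 0.35, with 0.75, 0.06 and 0.28 in the 3 pairs.

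Pfkm, the muscle phosphofructokinase, was at -0.33 ± 0.47 and differed in sign between pairs. Slc2a1, a glucose transporter, was at -1.12, 0.21 and -0.12, with surroundings at -0.76 in the unnumbered pair. Pgm2, a phosphoglucomutase, was at -0.86, 0.35 and -0.34, with surroundings at -0.59 there. Tkt, transketolase of the pentose phosphate pathway, had 6 brighter clones between -0.18 and 0.24 and a gene value of -0.02 ± 0.11. Its range was wider than its difference from 0. Another 8 brighter genes, Bpgm, Got2, Mdh1, Mdh2, Pck2, Pdhb, Pgm1 and Taldo1, lay between -0.24 and -0.05.

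**Figure D5:**
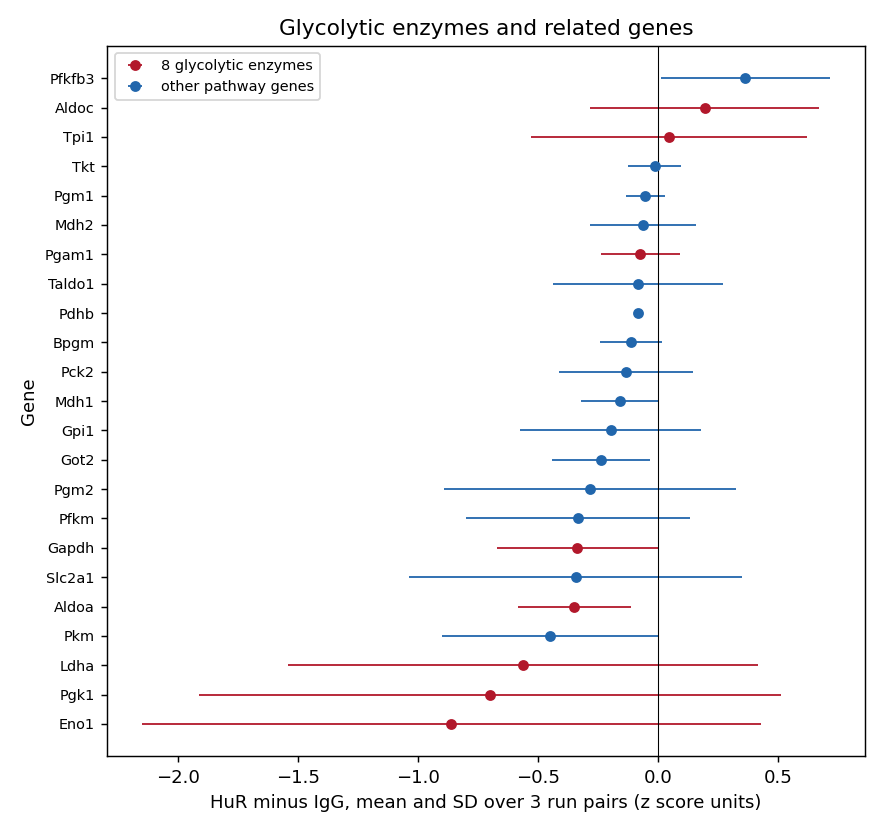
HuR minus IgG in z score units (horizontal axis, mean and SD over 3 run pairs) for the 8 enzymes (red) and the other genes of sugar metabolism named in the text (blue), ordered by value (vertical axis). Eno1, Pgk1 and Ldha have the lowest means and the SD bars that extend farthest, and Pfkfb3 the highest mean.

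The 8 enzymes can be set beside other abundant transcripts measured on the same runs. Cytosolic ribosomal protein genes (72) had a median of -0.19, and their medians by pair were -0.37 (unnumbered), 0.23 (pair 3) and -0.43 (pair 4). Respiratory chain genes (42) had a median of -0.12, with -0.30, 0.09 and -0.21. All named genes, at -0.13, 0.04 and -0.05, had the same signs by pair as both groups and as the 8 enzymes. Without Eno1 and Pgk1 the enzymes were at -0.42, -0.13 and -0.15. All of these values come from the same 6 arrays, and no test of a difference between the groups was made.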

How the data were processed

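Radiolabelled cDNA from the recovered RNA was hybridised to spotted cDNA arrays, per the labels. The authors deposited z scores for 3 runs per antibody with their mean, and for each clone a two-tailed p-value and z ratio, per the file headers. The recomputed mean was within 0.0067 of the deposited one. For the scanner, the log base and the background correction, the method was not given in the sources used here. Each run was centred on its median in each section of 8448 features (section medians were -0.16 to -0.03). HuR and IgG runs of the same name were paired. The brighter 50% by mean centred score held 8452 features, and a gene is the median of its clones there. Clones were named by Entrez Gene number through RefSeq genes of GRCm38.p6 (7527 features), or by the table's symbol (2676). A further 520 had conflicting numbers and 6173 no name. The threshold was 1 z score unit, with 0.6 and 1.5 as alternatives. Local medians used windows of 7 by 7 spots of all signal levels, with grids taken to lie in 16 rows of 24 as in the source plates. All members and their clones are named, with other pathway genes in the brighter 50%, named surrounding features past 1 unit, and the 3 features most like Eno1, except for items that are not reported here. The members and lists were chosen with earlier results of these data known. Centring, normalization, the filter on dim clones, clone choice, window size and run pairs were varied. Procedures were tested on simulated data. Python 3.11.15, numpy 2.4.6 and pandas 2.3.3 were used.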

Additional observations from a re-analysis of the deposited data

How the results depend on the processing

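The median of the 8 enzymes was -0.34. It was below 0 in all 14 alternatives tried, from -0.46 to -0.0033, the last on the second section, which carries only Tpi1 and 1 Gapdh clone. Leaving out 1 run pair gave -0.46 to -0.12. The median of the other pathway genes (-0.15) was -0.33 in the brightest 25% of features, where that of the enzymes was -0.34. Leaving out each run pair in turn, the median of the other pathway genes was -0.27 to -0.08. The count of 1 clone at or below -1 was 4 at a threshold of 0.6, 0 at 1.5, 0 with the local median subtracted, 0 on the second section and 0 without Eno1 and Pgk1. Leaving out 1 run pair gave 0 to 5 clones, with 5 without pair 3 and 0 without the unnumbered pair. The count of clones at or above 1 was 0 in all 10 alternatives. The median difference from the surroundings, taken here over the 14 clones and not over genes, was -0.32, and it was -0.31 to -0.30 with windows of 5 by 5 and 9 by 9 spots and with the adjoining source plate wells. Single genes had 85 alternative values, and each stayed within 1 SD over run pairs of its reported value. For a 1-clone gene this is fixed in advance with a pair left out, with the median of run pairs and with the choice of clone. The settings of the filter on dim clones only repeated or dropped the value of a gene. Many of the 85 values thus say nothing about stability. Aldoc was at -0.06 without the unnumbered pair and Tpi1 was below 0 in 3 alternatives. The section settings and the setting without Eno1 and Pgk1 were chosen after seeing the data. The cause of these changes was not tested. No paired analysis was possible because a test between samples needs more than 1 sample per antibody, and the run pairs only describe the spread between runs. The deposited scores carry no signal over background, and having 3 arrays per antibody limits the precision.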
